A study of Mus musculus with 14 samples.

Results

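Genes that mark intestinal stem cells or answer to Wnt signaling were followed in the ileum of mice lacking the nuclear receptor corepressor NCoR1 in the intestinal epithelium. The 10 genes, Lgr5, Olfm4, Ascl2, Smoc2, Axin2, Sox9, Rnf43, Znrf3, Myc and Prom1, were listed by name and found by gene symbol among the 54532 genes of the deposited count table. All 10 had counts in every mouse and passed the filter on low counts. Wnt ligands bind Frizzled and LRP receptors at the base of the crypt, where they keep β-catenin from being degraded, so that it enters the nucleus and switches on target genes with TCF/LEF factors. R-spondins, bound by Lgr5 and its relatives, strengthen this signal by removing Rnf43 and Znrf3, a pair of ubiquitin ligases that clear Frizzled from the cell surface. The columnar stem cells at the crypt base depend on it and renew the whole lining of the gut.

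The series holds RNA from the ileum mucosa of 14 male mice, 1 library per mouse. WT mice (n = 7) were NCoR1 flox/flox without Cre. IKO mice (n = 7) were NCoR1 flox/flox and carried Cre under the villin promoter, so that all 14 mice had the floxed allele and only the epithelium of the IKO mice was meant to lose it. All were fed a high-fat diet (HFD) for 15 weeks and were age-matched, with 7 to 8 weeks given in the general methods as the age at the start. The labels call the cells intestinal epithelial cells and the methods call the tissue mucosa, which also holds immune and stromal cells that keep Ncor1.

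Between 14749669 and 21557468 reads per mouse were counted on genes. Levels are given as CPM, the reads per 1000000 of the library with library sizes scaled by TMM. Ncor1 was at 106 to 195 CPM in WT mice and at 31.7 to 64.0 CPM in IKO mice, with no overlap (log2 fold change -1.41, edgeR adjusted p = 0.00051). Vil1, the epithelial actin-bundling protein villin, was at 1663 CPM or more in every mouse. The ileal bile acid binding protein Fabp6 was detected in every mouse, between 24.7 and 7661 CPM. The 12 immune cell genes examined summed to between 1630 and 3628 CPM. The following 3 libraries stood apart in ways that touch the results below. Reads of the mitochondrial genome made up 50.3% of IKO 4, 23.9% of WT 3 and 3.49% to 10.3% of the other 12 libraries. In WT 4 the 11 smooth muscle genes examined summed to 15951.5 CPM, against 132 to 1337 CPM in the other mice. Results that rest on these libraries are therefore also given without WT 4 and IKO 4.

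Levels of the 10 genes were first ordered within the WT mice, as CPM per kilobase of exon so that genes of different length can be compared. Olfm4 led with 34.9 ± 17.1 CPM per kilobase (SD, n = 7). Axin2 followed with 6.03 ± 2.27, and then came Myc with 3.44 ± 1.01, Prom1 with 3.04 ± 0.95, Smoc2 with 2.84 ± 3.07, Rnf43 with 2.82 ± 0.92, Sox9 with 2.07 ± 0.81 and Ascl2 with 1.60 ± 0.68 CPM per kilobase. Znrf3, with 0.42 ± 0.18, and Lgr5, with 0.232 ± 0.092, were the lowest. Olfm4 and Axin2 were the only neighbors in this order whose values did not overlap among the 7 WT mice. The values of all other neighbors overlapped, although Axin2 was above Myc, and Ascl2 above Znrf3, within each of the 7 mice. Smoc2, with the higher mean, was above Rnf43 in 1 of the 7 mice, WT 4, where it stood at 9.69 CPM per kilobase. In IKO mice Olfm4 and Axin2 also led, with 17.1 ± 8.59 and 7.30 ± 1.79 CPM per kilobase, and Znrf3 and Lgr5 were again lowest, with 0.263 ± 0.101 and 0.108 ± 0.072. Lgr5, the best known stem cell gene of the list, was thus its most weakly read member, with 6 to 99 reads per library. A count of 6 carries a sampling error of 40.8%, while the lowest Olfm4 count, 463, carries 4.65%.

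**Figure D1:**
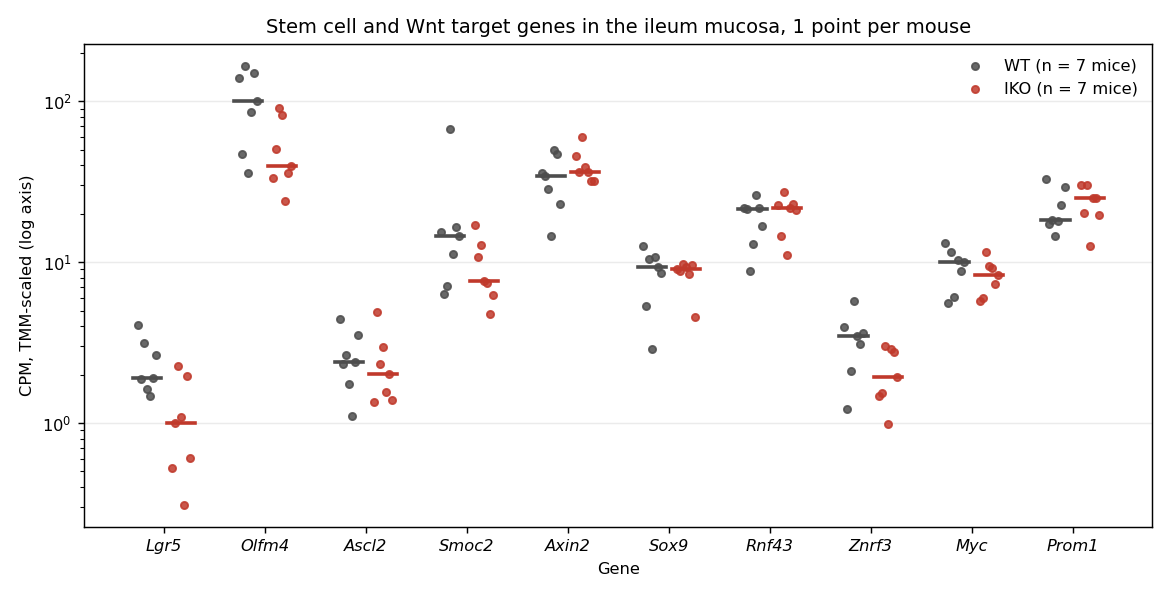
CPM (log axis) of each of the 10 genes in 7 WT (gray) and 7 IKO (red) mice, 1 point per mouse, with a line at the median of each genotype. Values of the genotypes overlap for every gene, and the medians lie farthest apart, as a ratio, for Olfm4 (100.002 CPM in WT and 39.6 in IKO mice), Smoc2 (14.5 and 7.65 CPM) and Lgr5 (1.89 and 1.00 CPM).

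The comparison of IKO with WT mice asks whether losing NCoR1 in the epithelium went along with a different level of these genes. By edgeR's quasi-likelihood test, adjusted by Benjamini-Hochberg over the 13846 genes tested, 0 of the 10 genes passed an adjusted p under 0.05, where 8.67% of all genes tested did (1200 genes, 607 higher and 593 lower). DESeq2 also called 0 of the 10, where it called 16.5% of all genes it tested. At an unadjusted p under 0.05, 3 of 10 passed by edgeR and 3 by DESeq2. The background at that threshold was 30.4% of all genes by edgeR and 31.4% by DESeq2 in either direction, and by edgeR 18.5% lower in IKO mice. The 3 genes, Lgr5, Olfm4 and Smoc2, were all lower in IKO mice. Of the 10 fitted log2 fold changes, 7 were below 0 and 3 were above, with a median of -0.17 beside -0.09 over all genes tested. None of the 10 had genotypes whose CPM did not overlap, against 3.1% of all genes tested. Scaling by library size alone, without TMM, moves the median of all genes to -0.49 and the calls to 195 higher and 3185 lower. Directions near 0 below are therefore relative to the TMM scaling.

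**Figure D2:**
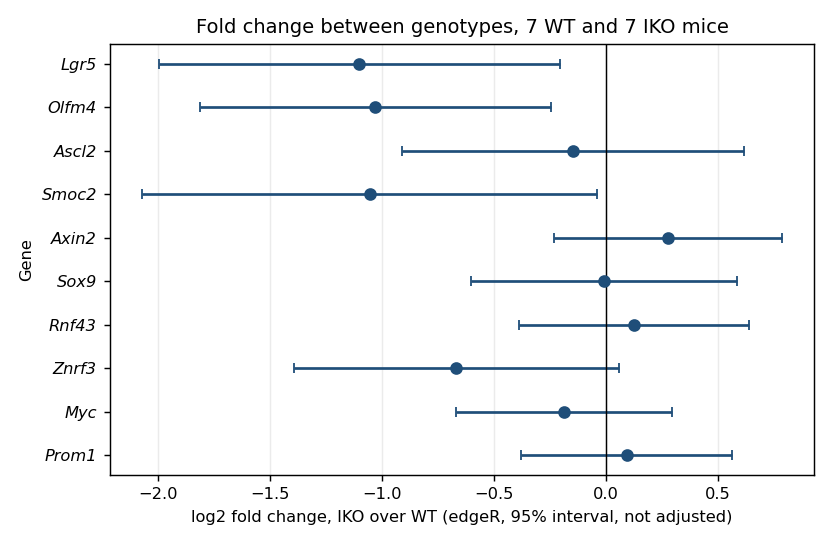
Log2 fold change of IKO over WT mice from edgeR for each of the 10 genes (points), with the 95% interval (bars), which is not adjusted for the number of genes. The intervals of Lgr5, Olfm4 and Smoc2 lie below 0, that of Znrf3 reaches 0.06, and the other 6 span 0 with points between -0.19 and 0.28.

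Among the markers of crypt base stem cells, Lgr5 and Olfm4 were lower in IKO mice by about the same factor, without passing the adjusted threshold. Lgr5 (chr10:115450311-115587780, minus strand, build mm10) encodes the R-spondin receptor that defines these cells. Its level ranged from 1.47 to 4.04 CPM in WT mice with a median of 1.89, and from 0.31 to 2.27 CPM in IKO mice with a median of 1.00. In all, 5 of 7 IKO mice were below every WT mouse, while IKO 3 and IKO 6, at 2.27 and 1.95 CPM, lay among the WT values. The log2 fold change was -1.10 (standard error 0.42, edgeR adjusted p = 0.0998), a fold of 0.467 with a 95% interval of 0.251 to 0.867. A two-sided exact permutation test on log2 CPM, over all divisions of the mice into 7 and 7, gave p = 0.0128 for Lgr5, where 0.000583 is the smallest p possible. Such a test was made for each of the 10 genes, and their p-values are not adjusted. It was not run over all genes, so no background share stands beside it. In whole mucosa, fewer stem cells and less Lgr5 RNA per stem cell cannot be told apart, and the same holds for every gene below.

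Olfm4 (chr14:79984081-80023139, plus strand) encodes a secreted glycoprotein made in quantity by these stem cells. It ranged from 35.7 to 165.8 CPM in WT mice with a median of 100.002, and from 23.9 to 90.2 CPM in IKO mice with a median of 39.6. All 7 IKO mice were below the WT median, and 4 of 7 WT mice were above every IKO mouse. The WT mice WT 2 and WT 4, at 47.2 and 35.7 CPM, lay in the lower part of the IKO range. For Olfm4 the log2 fold change was -1.03 (standard error 0.37, edgeR adjusted p = 0.0833), a fold of 0.490 with a 95% interval of 0.285 to 0.843, and the exact permutation test gave p = 0.0402. The call of Olfm4 depended on the processing. Without WT 4 and IKO 4 its log2 fold change was -1.33 (edgeR adjusted p = 0.0429), and limma-voom with sample quality weights gave -1.41 (adjusted p = 0.00849). Without WT 3 as well as that pair, the edgeR adjusted p was 0.0814. Library size alone put 3 genes past the threshold, Olfm4 with an edgeR adjusted p of 0.0172, Lgr5 with 0.0329 and Smoc2 with 0.0474. Over its 26 alternatives the adjusted p of Olfm4 ran from 0.00849 to 0.163, and over the 23 of Lgr5 that of Lgr5 ran from 0.0329 to 0.205.

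Smoc2 (chr17:14279506-14404790, plus strand), a secreted matricellular protein used as a stem cell marker, gave a fold of like size that rested on 1 mouse. It ranged from 6.31 to 67.3 CPM in WT mice with a median of 14.5, and from 4.76 to 16.95 CPM in IKO mice with a median of 7.65. The highest value, 67.3 CPM, was that of WT 4, and the other 6 WT mice were at 6.31 to 16.6 CPM. For Smoc2 the log2 fold change was -1.06 (standard error 0.48, edgeR adjusted p = 0.151), and the exact permutation test gave p = 0.168. Without WT 4 the log2 fold change was -0.32 (edgeR adjusted p = 0.532), and without WT 4 and IKO 4 it was -0.27. The smooth muscle genes that were high in WT 4 were next highest in IKO 1, with a sum of 1337 CPM, and that mouse also had the highest Smoc2 value of the IKO mice, 16.95 CPM. In WT 4 the muscle proteins Des and Myh11 reached 2953 and 2744 CPM, against WT medians of 4.98 and 5.96 CPM. The part of such tissue in the Smoc2 values was not tested.

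**Figure D3:**
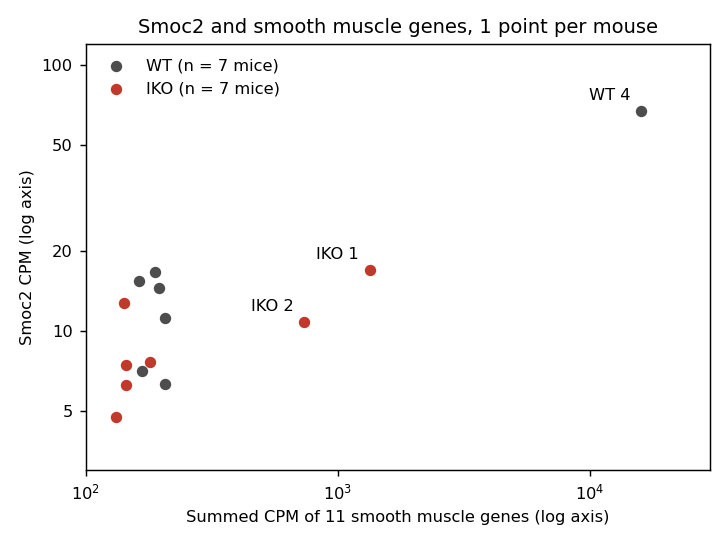
Smoc2 CPM (y axis, log) against the summed CPM of 11 smooth muscle genes (x axis, log) in 7 WT (gray) and 7 IKO (red) mice, 1 point per mouse. WT 4 stands apart on both axes at 15951.5 summed CPM and 67.3 Smoc2 CPM, and IKO 1 and IKO 2 are next on the x axis at 1337 and 735 summed CPM.

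Prom1 (chr5:43993620-44102032, minus strand), a pentaspan membrane protein of crypt stem and progenitor cells, was not lower. It ranged from 14.6 to 32.7 CPM in WT mice with a median of 18.1, and from 12.6 to 30.0 CPM in IKO mice with a median of 24.9. Of the 7 IKO mice, 6 were above the WT median, and the lowest value of all was that of IKO 4. The fitted change of Prom1 was 0.09 on the log2 scale (standard error 0.22, edgeR adjusted p = 0.807), with a 95% interval of the fold from 0.769 to 1.48, and it was -0.32 with library size alone.

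The transcription factors of the list showed small differences. Ascl2 (chr7:142966829-142969264, minus strand), a basic helix-loop-helix factor that sets stem cell fate together with Wnt signaling, ranged from 1.10 to 4.45 CPM in WT and from 1.34 to 4.89 CPM in IKO mice. Its medians were 2.38 and 2.01 CPM, and the highest value of all was that of IKO 2. The log2 fold change of Ascl2 was -0.15 (standard error 0.36, edgeR adjusted p = 0.808), and the 95% interval of its fold, 0.532 to 1.53, was wide. Ascl2 and Lgr5 were read at like depth, with 21 to 109 reads of Ascl2 per library.

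Sox9 (chr11:112782224-112787760, plus strand), an HMG-box factor of the crypt base and of Paneth cells, ranged from 2.90 to 12.6 CPM in WT mice with a median of 9.27. In IKO mice it ranged from 4.58 to 9.70 CPM with a median of 9.06. Of the IKO mice, 6 lay closely together, from 8.46 to 9.70 CPM, and IKO 7 was below them at 4.58 CPM. The lowest value of all was that of WT 4. The log2 fold change of Sox9 was -0.01 (standard error 0.28, edgeR adjusted p = 0.988), with a 95% interval of the fold from 0.659 to 1.498.

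Myc (chr15:61985391-61990374, plus strand), the Wnt target that drives growth of proliferating crypt cells, ranged from 5.54 to 13.1 CPM in WT and from 5.73 to 11.6 CPM in IKO mice. Of the 7 IKO mice, 6 were below the WT median of 10.1 CPM. Its log2 fold change was -0.19 (standard error 0.23, edgeR adjusted p = 0.599), with a 95% interval of the fold from 0.629 to 1.23.

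Axin2, Rnf43 and Znrf3 encode inhibitors that Wnt signaling itself induces, and they did not go one way. Axin2 (chr11:108920349-108950783, plus strand), a scaffold of the complex that degrades β-catenin and the target most often read as a measure of Wnt activity, ranged from 14.6 to 49.5 CPM in WT mice with a median of 34.2. In IKO mice it ranged from 32.0 to 59.8 CPM with a median of 36.6, so that the genotypes overlapped widely. The lowest Axin2 value was again that of WT 4. Axin2 was fitted at 0.28 on the log2 scale (standard error 0.24, edgeR adjusted p = 0.453), with a 95% interval of the fold from 0.851 to 1.72. With library size alone the fold of Axin2 turned to the other side of 0, at -0.089 on the log2 scale.

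Rnf43 (chr11:87662722-87735539, plus strand) and Znrf3 (chr11:5276324-5444847, minus strand) encode related membrane ubiquitin ligases that remove Frizzled receptors. Rnf43 ranged from 8.77 to 26.1 CPM in WT and from 11.04 to 27.2 CPM in IKO mice, with medians of 21.5 and 21.6 CPM. Its log2 fold change was 0.12 (standard error 0.24, edgeR adjusted p = 0.758), with a 95% interval of the fold from 0.763 to 1.56, and it was -0.24 with library size alone. Znrf3, read far less deeply at 9 to 121 reads per library, ranged from 1.22 to 5.75 CPM in WT and from 0.98 to 2.99 CPM in IKO mice. All 7 IKO mice were below the WT median of 3.45 CPM, and 5 of 7 WT mice were above every IKO mouse. The log2 fold change of Znrf3 was -0.67 (standard error 0.34, edgeR adjusted p = 0.196), with a 95% interval of the fold from 0.381 to 1.04. The highest Znrf3 value was that of WT 4, and without WT 4 and IKO 4 the log2 fold change was -0.37 (edgeR adjusted p = 0.480). Axin2, Sox9, Rnf43 and Znrf3 lie on chromosome 11, as does Ncor1, whose floxed allele all 14 mice of both genotypes had.

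Olfm4 and Axin2 were the most abundant members, and the letters before their RefSeq start sites differ in base composition. Neither gene passed the adjusted threshold by edgeR, and a relation of these letters to the fold changes was not tested. The last 80 bases before the start are shown for both from RefSeq on GRCm38.p6, Olfm4 at chr14:80000222-80000301 and Axin2 at chr11:108920269-108920348, plus strand, with TATAA in capitals. The Olfm4 start site of RefSeq lies inside the gene as the count table bounds it.
Olfm4: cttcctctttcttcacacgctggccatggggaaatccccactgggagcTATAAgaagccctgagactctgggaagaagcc
Axin2: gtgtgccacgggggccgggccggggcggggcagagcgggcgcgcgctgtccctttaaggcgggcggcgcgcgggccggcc
The Olfm4 window holds TATAA, 32 bases before the start, and none is in that of Axin2. Within 250 bases before the start, G and C made up 54% in Olfm4 and 69.2% in Axin2, beside a median of 52.4% over all 32851 promoters. Promoters of 5 members, Olfm4, Ascl2, Axin2, Rnf43 and Prom1, with 7 start sites, were at hand. In those 250 bases, on both strands, CTTTGAT, a core of the TCF/LEF motif, was found in 0 of the 5, against 3.21% of all promoters. AGGTCA, the core bound by many nuclear receptors, was also found in 0 of the 5, against 14% of all. TATAA was found in 1 of the 5, Olfm4, against 22.8% of all promoters. These are matches of letters within a short window and say nothing of binding.

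Ratios of a pair of genes within the same library do not depend on how libraries are scaled. The ratios of Lgr5 and of Olfm4 to Axin2 were chosen after the values above had been seen and are given without a test, as log2 ratios of counts with 0.5 added to each. For Lgr5 the log2 ratio ran from -5.05 to -3.11 in WT mice with a median of -3.17, and from -6.77 to -4.02 in IKO mice with a median of -5.13. That put 5 of 7 IKO mice below every WT mouse. For Olfm4 it ran from 0.46 to 2.55 in WT mice with a median of 1.67, and from -0.61 to 1.07 in IKO mice with a median of 0.30, where 4 of 7 IKO mice were below every WT mouse. The difference between the genotype means was -1.62 for Lgr5 and -1.33 for Olfm4, and without WT 4 and IKO 4 it was -1.57 and -1.52. Over the mice left out in turn and that pair, these differences stayed between -1.85 and -1.39 for Lgr5 and between -1.52 and -1.16 for Olfm4. Axin2 was fitted at 0.28, and Lgr5 and Olfm4 at -1.10 and -1.03. By this choice of genes the ratios differ more than Lgr5 or Olfm4 alone.

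Mice of the same genotype differed in several of the 10 genes at once. WT 1 was above the mean of its genotype for all 10 genes and the highest of the WT mice for 5. IKO 3 was above the mean of its genotype for all 10 and the highest of the IKO mice for 7. On average over the 10 genes, WT 1 lay 0.52 and IKO 3 lay 0.57 above the genotype mean on the log2 CPM scale. At the other end, WT 2 lay 0.47 below (mean deviation -0.47) and was above the mean for 2 genes. WT 4 was the lowest WT mouse for 4 genes, Olfm4, Axin2, Sox9 and Prom1, and the highest for 2, Smoc2 and Znrf3. IKO 4 was the lowest IKO mouse for Rnf43, Znrf3 and Prom1.

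**Figure D4:**
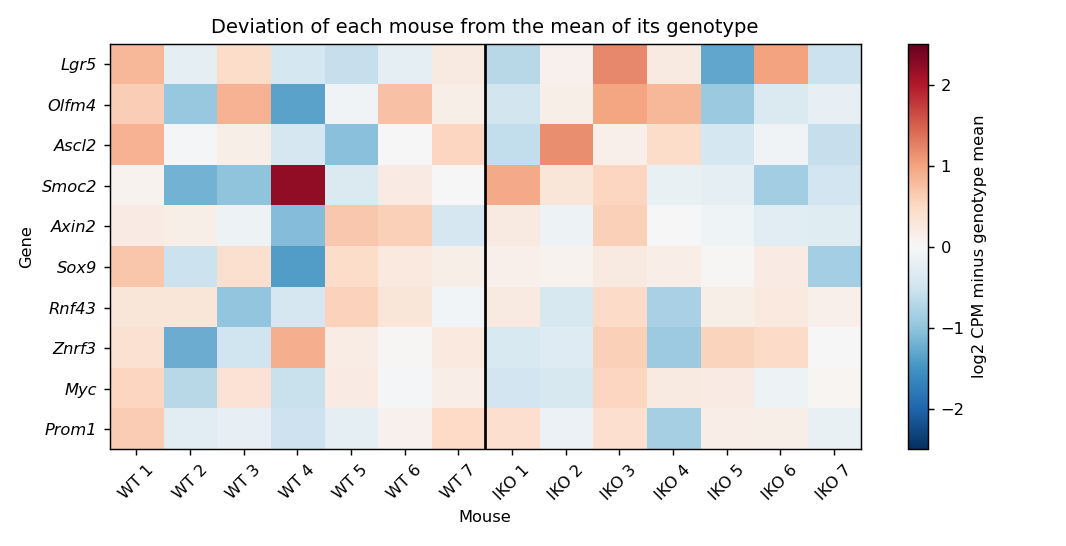
Log2 CPM of each gene (rows) in each mouse (columns) minus the mean of the mouse's genotype, in red above and blue below it, with WT mice left of the black line and IKO mice right of it. WT 1 and IKO 3 are above the mean for all 10 genes, and WT 4 is above it for 2, Smoc2 and Znrf3.

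The genes whose levels followed Lgr5 most closely from mouse to mouse were sought among 13044 genes, by the Pearson correlation of log2 CPM with the genotype mean removed, over 14 mice, which share depth and composition of the libraries. Pms2, a DNA mismatch repair protein, led with 0.83. Ankrd49 (0.83), Cep70 (0.78), a centrosomal protein, Ehf (0.77), an epithelial ETS factor, and Sgpp1 (0.76), a sphingosine-1-phosphate phosphatase, came next. Pms2 and Sgpp1 were also among the leading 5 without WT 4 and IKO 4. Of the other members, Olfm4 was nearest to Lgr5 with 0.63, at rank 89, and Ascl2 came next with 0.59, at rank 142. Smoc2 and Rnf43 were at -0.16 and -0.07. With counts as low as those of Lgr5 these values are a description only.

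The other genes of the Wnt pathway were examined by their place in it, beside the background of 8.67% called. From here on, called means past an adjusted p of 0.05 by edgeR, and counts by DESeq2, with its background of 16.5%, are given apart. Of the ligands, R-spondins and their secretion factors, 7 of 25 listed genes could be tested and 0 were called by edgeR or DESeq2 (1 at an unadjusted edgeR p under 0.05), with all 7 fits below 0 and a median log2 fold change of -0.60. The secretion factor Wls was at 15.3 ± 10.1 CPM in WT and 11.5 ± 4.44 CPM in IKO mice (SD, n = 7 each). Wnt6 was at 3.44 ± 2.59 and 2.54 ± 0.73 CPM, and Wnt5a at 3.62 ± 4.95 and 1.37 ± 0.86 CPM. Both Wls and Wnt5a were highest in WT 4, and without WT 4 and IKO 4 the median of the list was -0.27.

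Of the receptors, 2 of 14 tested genes were called, both lower in IKO mice. The median of the list was -0.22, and -0.06 without WT 4 and IKO 4. DESeq2 called 3, all lower. Fzd1 fell from 4.56 ± 2.41 to 1.91 ± 0.70 CPM (log2 fold change -1.26, edgeR adjusted p = 0.0385). Fzd6 fell from 3.51 ± 1.96 to 1.48 ± 0.60 CPM (log2 fold change -1.23, edgeR adjusted p = 0.0455). Both were highest in WT 4, and without WT 4 and IKO 4 neither passed. Fzd1 was then at -1.09 on the log2 scale (edgeR adjusted p = 0.0609), about as large as before, and Fzd6 at -0.75 (adjusted p = 0.0881). The most abundant receptors of the list were Fzd5, the atypical receptor Ryk and the co-receptor Lrp6. Fzd5 was at 122 ± 40.6 CPM in WT and 138 ± 54.7 CPM in IKO mice. Ryk was at 73.1 ± 17.5 and 75.9 ± 14.4 CPM, and Lrp6 at 62.3 ± 25.9 and 54.5 ± 25.4 CPM. None of these 3 was called.

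Of the secreted or membrane-bound inhibitors, 0 of 4 tested genes were called by edgeR or DESeq2 (2 at an unadjusted edgeR p under 0.05), with a median log2 fold change of -1.12 that was -0.45 without WT 4 and IKO 4. Dkk3 reached 27.7 CPM in WT 4 against a WT median of 2.66 CPM. The LRP-binding receptors Kremen1 and Kremen2 had log2 fold changes of -0.44 and -0.68 (edgeR adjusted p = 0.280 and 0.119).

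Of the transducers, 33 were tested, 3 were called higher and 1 lower, with a median log2 fold change of -0.01. DESeq2 called 7 higher and 2 lower. Tbl1xr1 rose from 57.8 ± 8.37 to 156 ± 33.4 CPM (log2 fold change 1.43, edgeR adjusted p = 0.000225), and Tbl1x from 40.8 ± 9.24 to 77.9 ± 13.5 CPM (0.93, adjusted p = 0.00784). Both proteins bind β-catenin and are also subunits of the NCoR corepressor complex. The kinase Gsk3a, which marks β-catenin for degradation, rose from 58.4 ± 9.15 to 105 ± 23.9 CPM (0.85, edgeR adjusted p = 0.00853). These 3 were also called without WT 4 and IKO 4. The Groucho-type corepressor Tle2 fell, with a log2 fold change of -2.32 (edgeR adjusted p = 0.0467), but it stood at 9.02 CPM in WT 4 against a WT median of 0.79 CPM, and without WT 4 and IKO 4 it was at -1.14 and not called (adjusted p = 0.148). β-catenin itself, Ctnnb1, was not called (0.53, edgeR adjusted p = 0.523). Its 2 highest values, 3297 and 2332 CPM, were those of IKO 4 and WT 3, the libraries with the most mitochondrial reads. Without WT 4 and IKO 4 its log2 fold change was -0.23, but that fit still held WT 3, against a WT median of 619 CPM.

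Of 24 other Wnt targets tested, 1 was called, and DESeq2 called 1 higher and 1 lower. Ets2, an ETS family factor, rose from 123 ± 26.0 to 189 ± 15.9 CPM (log2 fold change 0.62, edgeR adjusted p = 0.0214), and was at 0.57 with an adjusted p of 0.0587 without WT 4 and IKO 4. The median over the 24 was -0.09, the same as over all genes. The abundant targets Id3, Ccnd2 and Zfp703 had log2 fold changes of -0.27, 0.37 and 0.07 and were not called.

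**Figure D5:**
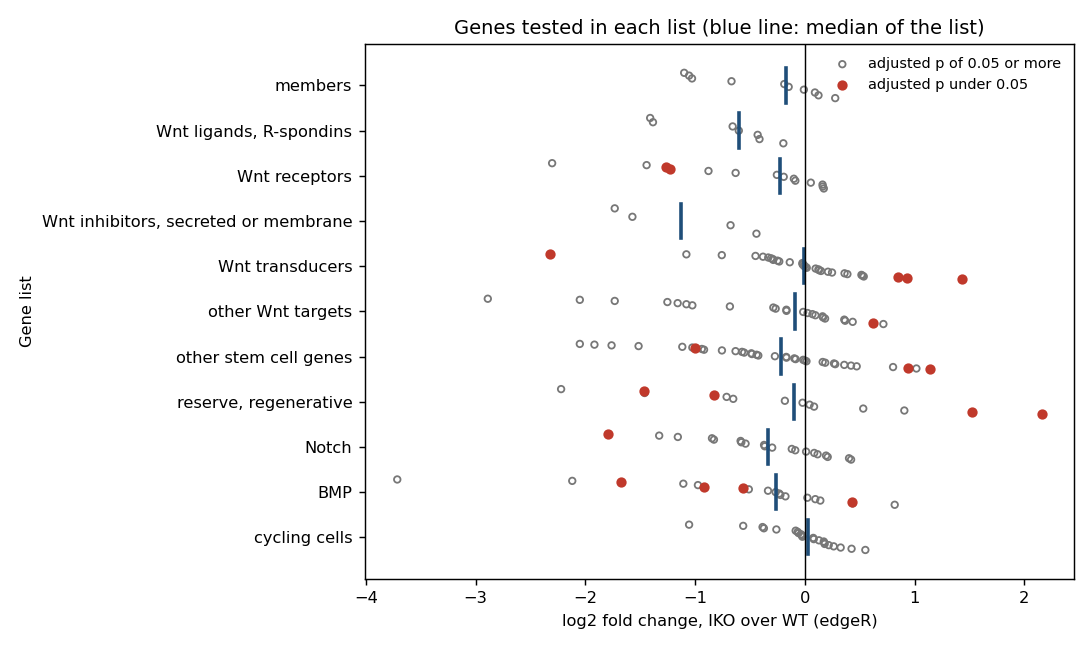
Log2 fold change of IKO over WT mice (x axis) for each gene tested in each list (rows), with genes at an adjusted p under 0.05 in red, the others as open circles, and a blue line at the median of the list. None of the 10 members is red, the receptors have 2 red points, both below 0, and the transducers have 3 above and 1 below 0.

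Of 36 other genes linked to crypt stem cells, 2 were called higher and 1 lower, with a median log2 fold change of -0.22 (0.01 without WT 4 and IKO 4). DESeq2 called 3 higher and 3 lower. Rnf32, a ring finger protein of the stem cell signature, fell from 11.3 ± 4.93 to 5.64 ± 1.96 CPM (log2 fold change -1.003, edgeR adjusted p = 0.0386), and was at -0.93 with an adjusted p of 0.0902 without WT 4 and IKO 4. Vdr, the vitamin D receptor, rose from 274 ± 56.8 to 527 ± 65.2 CPM (0.94, edgeR adjusted p = 0.00549), and Sectm1b from 409 ± 121 to 900.2 ± 161 CPM (1.14, adjusted p = 0.00892). Vdr is a nuclear receptor expressed along the whole epithelium. The list also holds Clca4b and Hnf4a, which are not restricted to stem cells. Clca4b was not called, and Hnf4a, at 0.47, was called by DESeq2 (adjusted p = 0.0288) and not by edgeR (adjusted p = 0.107).

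Of 14 tested genes of reserve stem cells and regeneration, 2 were lower and 2 higher, by edgeR and by DESeq2. Bmi1, a Polycomb protein used as a marker of reserve stem cells, fell from 14.4 ± 2.46 to 8.10 ± 2.22 CPM (log2 fold change -0.82, edgeR adjusted p = 0.0226), and was at -0.73 with an adjusted p of 0.0589 without WT 4 and IKO 4. Tert, the catalytic part of telomerase, fell from 2.39 ± 1.09 to 0.86 ± 0.23 CPM (-1.46, edgeR adjusted p = 0.0204). Areg and Ereg, ligands of the EGF receptor, rose from 11.6 ± 8.05 to 51.7 ± 23.0 CPM and from 16.3 ± 4.83 to 46.7 ± 21.8 CPM (2.16 and 1.52, edgeR adjusted p = 0.00709 and 0.00892). Clu, a marker of revival stem cells, varied from 3.09 to 251 CPM among WT mice and was not called (-2.22, edgeR adjusted p = 0.0996).

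Signals that oppose or shape Wnt at the crypt were also examined. Of 20 Notch genes tested, 1 was called: the ligand Jag2 fell from 4.204 ± 1.81 to 1.20 ± 0.38 CPM (log2 fold change -1.79, edgeR adjusted p = 0.00803). Of 19 BMP genes tested, 3 were lower and 1 higher. Bmp1, a procollagen protease despite its name, fell from 27.3 ± 15.6 to 8.51 ± 3.42 CPM (-1.68, edgeR adjusted p = 0.00934). Smad6, an inhibitor of BMP signaling, fell from 19.8 ± 4.21 to 10.4 ± 2.28 CPM (-0.92, edgeR adjusted p = 0.00934), and the BMP target Id2 from 39.6 ± 5.05 to 26.7 ± 3.78 CPM (-0.57, adjusted p = 0.0181). Smad1, which carries the BMP signal, rose from 42.4 ± 6.90 to 56.9 ± 4.52 CPM (0.43, edgeR adjusted p = 0.0491), and was at 0.38 with an adjusted p of 0.115 without WT 4 and IKO 4. DESeq2 called 2 Notch genes, both lower, and 5 BMP genes lower and 1 higher. The medians of the lists were -0.33 for Notch and -0.27 for BMP, and -0.16 and -0.18 without WT 4 and IKO 4.

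Of 7 tested paralogs of the members, 0 were called by edgeR, 4 had an unadjusted p under 0.05, and DESeq2 called 1, Smoc1, lower (adjusted p = 0.0293). Lgr4, the R-spondin receptor of the whole epithelium, was at 59.4 ± 19.1 CPM in WT and 49.8 ± 27.9 CPM in IKO mice (log2 fold change -0.26, edgeR adjusted p = 0.661), and Axin1 at 37.9 ± 9.71 and 43.8 ± 6.51 CPM (0.21, adjusted p = 0.399). Mycl and Mycn had log2 fold changes of -0.34 and -0.84, and Sox4 one of -1.25 (edgeR adjusted p = 0.499, 0.159 and 0.0978). Olfm1 and Smoc1 had -2.11 and -1.81 (edgeR adjusted p = 0.111 and 0.0753). Both were highest in WT 4, at 28.4 and 11.4 CPM, and without WT 4 and IKO 4 they had -0.02 and -0.96.

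Of 22 genes of cycling cells, 0 were called by edgeR, 3 had an unadjusted p under 0.05 (1 higher and 2 lower), and the median log2 fold change was 0.03. DESeq2 called 1 of them, Mki67, lower (adjusted p = 0.0446). Their summed level ran from 250.2 to 685 CPM in WT mice and from 361 to 559 CPM in IKO mice, so that the IKO range lay inside that of WT. Mki67, the proliferation antigen Ki-67, was at 75.0 ± 25.4 CPM in WT and 36.1 ± 21.9 CPM in IKO mice (-1.05, edgeR adjusted p = 0.0767), whereas Pcna was at 55.1 ± 13.2 and 66.1 ± 4.96 CPM (0.26, adjusted p = 0.266). The markers of other cells of the mucosa were examined beside the members. By edgeR, 1 of 18 enterocyte genes (Fabp1, higher) and 1 of 9 tuft cell genes (Avil, lower) were called, and 0 of 13 Paneth, 10 goblet, 10 enteroendocrine, 9 smooth muscle, 8 fibroblast, 12 immune, 6 endothelial and 1 enteric glia or neuron genes tested. At an unadjusted edgeR p under 0.05, there were 0 Paneth, 1 goblet, 2 enteroendocrine, 2 smooth muscle, 7 fibroblast, 4 immune, 2 endothelial and 0 enteric glia or neuron genes. DESeq2 called 1 enterocyte gene higher and 1 lower, 1 goblet gene higher (Spink4), and lower 2 enteroendocrine genes (Gip and Neurod1), 1 fibroblast gene (Pdgfra), 1 immune gene (Ptprc) and 4 tuft cell genes. Without WT 4 and IKO 4, Fabp1 was at 2.22 on the log2 scale, against 2.17 with them, and Avil at -0.91, against -1.17 (edgeR adjusted p = 0.0549 and 0.0989).

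The tuft cell genes, like those of some other lists given below, lay lower in IKO mice. All 9 tested were fitted below 0, with a median log2 fold change of -0.94 (-0.79 without WT 4 and IKO 4), and 6 had an unadjusted edgeR p under 0.05. The 10 tuft cell genes listed summed to between 47.2 and 116 CPM in WT mice with a median of 69.9, and to between 26.2 and 58.6 CPM in IKO mice with a median of 43.1, so that the ranges overlapped. The Il25 gene of this list was too low to be tested. Fits were also below 0 for 8 of 8 fibroblast, 11 of 12 immune and 5 of 6 endothelial genes. The same held for 8 of 10 enteroendocrine and 9 of 9 smooth muscle genes. Medians of these 5 lists, in this order, were -1.68, -0.45, -0.59, -0.25 and -3.003. Without WT 4 and IKO 4 they were -0.64, -0.73, -0.46, -0.20 and 2.785. Fits were above 0 for 11 of 18 enterocyte, 9 of 13 Paneth and 9 of 10 goblet genes, with medians of 0.30, 0.29 and 0.18. Without WT 4 and IKO 4 these medians were 0.28, -0.26 and 0.37, so that the Paneth median turned below 0. The summed Paneth genes, whose cells sit between the stem cells, ran from 923 CPM, in WT 4, to 8568 CPM in WT mice, and from 2952 to 8290 CPM in IKO mice. The part of cell makeup in the values of the 10 genes was not tested.

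Few reads were counted on genes that overlap the members, though counts per gene do not show how many reads were shared. Genes overlapping Lgr5, Olfm4, Smoc2, Axin2, Rnf43 or Prom1 had at most 69 reads in all 14 libraries together (a gene within Rnf43, which itself had 5087), and the gene opposite to Lgr5 had 1.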

How the data were processed

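The deposited counts are whole reads per gene, not normalized. The authors made NEBNext libraries, sequenced 150-bp paired-end reads, aligned them with HISAT2 v2.0.5 and counted them with featureCounts v1.5.0-p3. The submitters' processing notes give the build mm10. Strandedness is not given in the sources used here. The deposited FPKM equal counts per exon length and DESeq2 size factor times 1 constant, in 100% of genes, and served as an alternative only. Genotypes came from the sample titles.

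Genes kept by filterByExpr (13846) were TMM-normalized and compared with edgeR 4.0.16 (glmQLFit, glmQLFTest; R 4.3.3), in a model of genotype alone, adjusted by Benjamini-Hochberg over all genes tested. Log2 CPM used a prior count of 2. Exact permutation tests were two-sided. The p-values set the difference between genotypes against the spread between mice. Alternatives used DESeq2 1.42.0 and limma 3.58.1 and left out mice. The code was tested on simulated counts. There edgeR called 18.2% of the genes given a log2 change of 1 in either direction, and 82.3% of those given 2.

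The 10 genes and all lists were chosen with earlier results of these data known. Named beside the members were called genes of each pathway list (6 at most, by size), up to 3 further abundant ones, all paralogs tested and the 5 genes nearest to Lgr5. Older symbols were matched through RefSeq synonyms. The member coordinates are the same in GENCODE M21.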

Additional observations from a re-analysis of the deposited data

Results flagged for a closer look

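In each genotype, the highest and lowest of the 7 log2 CPM values of each of the 10 genes were compared with the nearest other value by Dixon's criterion. Of 20 groups examined, 2 held a distant mouse, where about 1 is expected by chance at this criterion. Smoc2 in WT 4 lay above the other WT mice by a gap of 0.592 of the WT range (67.3 CPM, next 16.6 CPM). WT 4 also had the highest sum of smooth muscle genes, and the part of that tissue in the value was not tested. Sox9 in IKO 7 lay below the other IKO mice by a gap of 0.818 of the IKO range (4.58 CPM, next 8.46 CPM). Without IKO 7 the log2 fold change of Sox9 was 0.10 (edgeR adjusted p = 0.833).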

How the results depend on the processing

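The number of genes called (1200) was 2571 with DESeq2, 3380 with library size alone, 508 without the filter on low counts (more genes tested), 1889 with voom and sample quality weights, 606 without WT 4 and IKO 4, and 433 without WT 3, WT 4 and IKO 4. With 1 mouse left out in turn it ran from 515 to 1371, and it was moved by over 1.5 times without WT 4 (746), WT 7 (600), IKO 1 (526), IKO 2 (728), IKO 5 (515) or IKO 7 (789). Of the 10 genes, 3 were called with library size alone (Olfm4, Smoc2 and Lgr5), 1 with voom weights and 1 without WT 4 and IKO 4 (Olfm4 both times), and 0 with any single mouse left out, with a lowest and highest of 0. The permutation test gave p under 0.05 for 2 genes, and for 1 (Lgr5) to 3 with a mouse left out. The 3 were Lgr5, Olfm4 and Znrf3, without WT 2. Olfm4 lost it without WT 1, WT 3, WT 5, WT 6, WT 7, IKO 1, IKO 2, IKO 5, IKO 6 or IKO 7. The share of all genes with p under 0.05 by the permutation test was not computed. By edgeR, 30.4% of all genes tested had an unadjusted p under 0.05, so these counts do not set the members apart. Direction turned with library size alone for Axin2 (-0.089), Rnf43 (-0.24) and Prom1 (-0.32). Ascl2 turned only without WT 1, with a range of -0.43 to 0.022 over mice left out. Sox9, near 0, turned to 0.025 with DESeq2, 0.020 with RLE, 0.054 and 0.11 on log2(FPKM + 1) and log2(FPKM + 0.1), and ranged from -0.16 to 0.10 with a mouse left out. Lgr5, Olfm4, Smoc2, Znrf3 and Myc kept their direction in every alternative that gave them a value. Lgr5 and Znrf3 had none with at least 10 counts in every mouse or after the FPKM filter. The cause of these moves was not tested.

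WT and IKO mice carry the same numbers, 1 to 7. Deviations of same-numbered mice correlated between -0.32 and 0.23, and 1 of 7 numbers was nearest to its own, so the numbers were not taken as pairs. With the number as a replicate block, 362 genes and 0 of the 10 were called, and Sox9 was at 0.067.

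Depth limits Lgr5, Ascl2 and Znrf3 most, with 6, 21 and 9 reads in their lowest libraries. An adjusted p above 0.05 does not show that a level was the same. Without strand information, reads of overlapping genes cannot be told apart.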
